A study of Drosophila melanogaster with 16 samples.

Results

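Long non-coding RNA (lncRNA) genes are transcribed into RNAs with no long open reading frame. The genes described here are the 154 rows of the gene count table whose FlyBase symbol starts with lncRNA: and whose CPM (a gene's count divided by the total of its library, times 1000000) averaged at least 1 over the 16 libraries, with roX1 and roX2 left out. The members were chosen by their mean CPM from 1892 lncRNA: rows in a table of 17737 genes, so their levels are given below as a description. Of the 1892 rows, 623 had no count in any library and 1736 lay below the limit. The libraries were ribosome-depleted total RNA of Drosophila melanogaster S2 cells, an embryonic line with hemocyte-like properties, and no further allele or transgene is named in the labels. PARPi cells received 10 µM PJ34, an inhibitor of poly(ADP-ribose) polymerase activity, for 16 h (3 libraries, December). KD cells received siRNA against PARP1 (3 libraries in December and 4 in October), and WT cells are given no treatment in the labels (3 libraries in December and 3 in October). No group with a control siRNA or a vehicle is named. The labels do not say whether libraries came from separate cultures, so p-values measure the spread between these libraries, which may be technical.

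Drosophila lncRNAs have been assigned a range of roles. Hsromega RNA stays at its gene and in nuclear speckles that hold hnRNP proteins, and accumulates after heat shock, while some lncRNA transcripts are the primary transcripts from which microRNAs or snoRNAs are cut. For most genes with a CR number no function is known, and these are described by level, length and neighbours. The comparisons asked whether loss of the PARP1 protein and loss of its enzymatic activity were followed by different lncRNA levels.

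Library totals ran from 58531662 to 90439074 counts, and the 154 lncRNA genes took between 0.273% and 0.416% of them. Each of the 154 genes had counts in all 16 libraries, so every one entered every fit. For the 44 genes at 10 CPM or more, the median SD between replicates was 11.8% of the mean in PARPi, 11.5% in KD and 7.02% in WT of December, and 5.76% in KD and 6.11% in WT of October, against a counting error of 2.20% to 2.29%. For the 52 genes between 1 and 2 CPM the median SD was 12.8% to 16.1%, and the counting error 9.33% to 10.5%. Of 8 markers of S2 cells, 6 were at 1 CPM or more in every library: srp, the hemocyte GATA factor, had 117 to 247 CPM and Pvr, a receptor tyrosine kinase, had 363 to 751 CPM, while eater had 5.40 to 14.7 CPM. Sr-CI, a scavenger receptor, had 0.220 to 4.77 CPM and NimC1, a phagocytosis receptor, stayed at or below 0.222 CPM. Of 8 markers of other cell types, elav (23.5 to 46.3 CPM) and Mef2 (15.0 to 27.7 CPM) were detected, and vas, nSyb, Mhc, Fbp1, Lsp2 and tj stayed below 1 CPM. Parp1 mRNA averaged 154 ± 15.4 CPM in KD and 170 ± 11.2 CPM in WT of December (SD, n = 3 each; adjusted p = 0.320), and 80.5 ± 5.48 CPM (n = 4) in KD and 89.1 ± 10.0 CPM (n = 3) in WT of October (adjusted p = 0.0962; edgeR). The transcript was thus not called lower in either month. The study reports depletion of the PARP1 protein by Western blot, without naming a month. KD below refers to the libraries labelled as PARP knockdown.

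The 154 genes spanned 1.02 to 649 CPM with a median of 3.11 CPM, and the 10 highest held 66.4% of the CPM of the set. Just inside the limit were lncRNA:CR43651, lncRNA:CR44603 and lncRNA:CR46036 at 1.02, 1.02 and 1.03 CPM, and just outside it were lncRNA:CR45181, lncRNA:CR44845 and lncRNA:CR43287 at 0.996, 0.974 and 0.957 CPM. In the Ensembl release 115 annotation of BDGP6, the build named by the submitters, 34 of the 154 lay inside an intron of another gene. A further 29 overlapped an exon on the opposite strand and 16 an exon on the same strand. The remaining 75 did neither, small RNA genes aside, though some of them overlap the span of another gene outside its exons. A coding gene lay within 1000 bp of 127 of the 154. Their summed exon length had a median of 782 bp (205 to 21710 bp), against 610 bp for the other lncRNA genes, and 80 were a single exon block. The X chromosome held 33 of them, 14.4% of its lncRNA: rows, while the share on the arms 2L, 2R, 3L and 3R lay between 5.07% and 8.94%. The strand setting of the counting step was not stated, and reads of a lncRNA gene and of a gene that overlaps it, or of the unspliced transcript of a gene that surrounds it, cannot be told apart.

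Several lncRNAs known from development were near 0. The bithorax complex transcripts bxd, iab4 and iab8, the piRNA cluster transcript flam and the neuroblast lncRNA cherub had at most 7 counts in any library, and noe, yar, acal and let7C averaged 0.624, 0.0958, 0.131 and 0.102 CPM. The dosage compensation RNA roX2, left out of the set by its rule, stood at 127 CPM and its partner roX1 at 0.776 CPM.

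The highest levels per length of exon were in short transcripts. lncRNA:CR32368, a single exon of 410 bp on 3L (7915437 to 7915846, plus strand) that ends 317 bp from Tmem43, had 1082 CPM per kb of exon. lncRNA:CR34335 (X, 3545750 to 3546110, minus strand), which lies in an intron of the cell surface gene DIP-alpha, followed at 571 CPM per kb and lncRNA:CR43264, in an intron of CG15765, at 427 CPM per kb. lncRNA:CR40469 (X, 122493 to 122706, plus strand) had 284 CPM per kb. Of the 10 highest genes on this scale, 6 had under 500 bp of exon. The gene with the most counts, lncRNA:CR42862 at 649 CPM, spreads over 5485 bp and had 118 CPM per kb, and its exons overlap those of CG33229 on the same strand. lncRNA:Hsromega (3R, 21296127 to 21317836, plus strand) averaged 182 CPM but 8.40 CPM per kb over its 21710 bp. The other genes among the 10 with the most counts were lncRNA:CR43883 (192 CPM per kb), lncRNA:CR42491 (180 CPM per kb), lncRNA:CR44953 (168 CPM per kb) and lncRNA:CR45018 (17.6 CPM per kb, overlapping an exon of IP3K2 on the same strand).

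**Figure D1:**
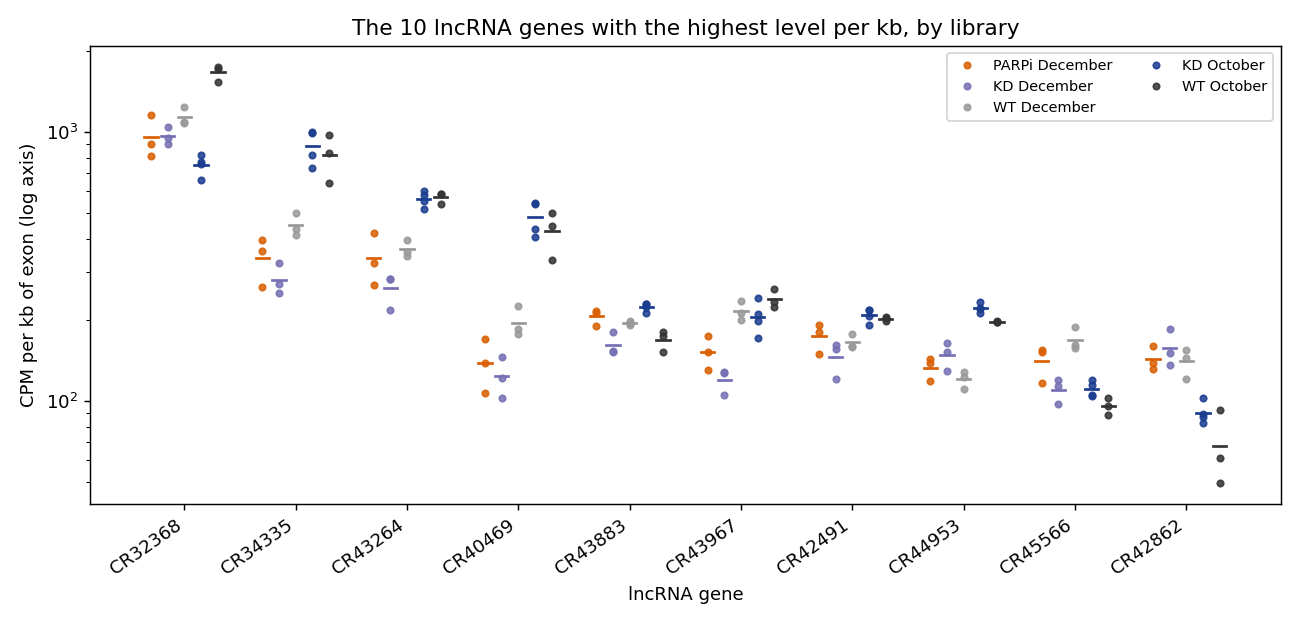
CPM per kb of exon (log axis) of the 10 lncRNA genes with the highest level per kb. Each point is a library and each short line a group mean, in the order PARPi, KD and WT of December, then KD and WT of October. CR32368 averaged 1082 CPM per kb over all libraries and CR42862 118 CPM per kb.

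PARylation inhibition changed few of these genes. Of the 154, 4 were called (2 higher and 2 lower in PARPi, edgeR quasi-likelihood test, adjusted p below 0.05), against 0.29% of all genes tested (0.153% higher and 0.136% lower) and 0.427% of genes at 1 CPM or more. An unadjusted p below 0.05 was reached by 39 of the 154, and DESeq2 called 6. The median log2 fold change was -0.05 over the set and -0.01 over all genes.

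lncRNA:CR45102 rose with PJ34. It is a single exon of 1429 bp on X (3701857 to 3703285, plus strand), 185 bp from Mnt, which encodes a partner of Max that represses transcription. It had 17.8, 21.5 and 20.3 CPM in PARPi, against 14.0, 11.9 and 13.2 CPM in WT of December. All PARPi values were above all WT values, the log2 fold change was 0.61 ± 0.08 (SE, adjusted p = 0.00175), and the gene was called in each of the 9 fits that left out a library. Mnt itself had a log2 fold change of -0.14 (adjusted p = 0.550).

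lncRNA:CR44922, which lies 1000 bp from Sfxn1-3, was the other gene that rose. It had 3.10, 4.26 and 3.65 CPM in PARPi, against 2.37, 1.91 and 2.65 CPM in WT of December. The groups did not overlap (log2 fold change 0.67 ± 0.14, adjusted p = 0.0448), but the call was kept in only 2 of 9 left-out fits.

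lncRNA:CR43967, a transcript of 245 bp in an intron of CG34031, fell with PJ34. PARPi libraries had 31.7, 42.7 and 37.1 CPM and WT libraries of December 48.8, 52.0 and 57.5 CPM. The change was -0.50 ± 0.10 (adjusted p = 0.0259), while CG34031 had -0.02 (adjusted p = 0.965).

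lncRNA:CR32582, 111 bp from the clathrin heavy chain gene Chc, also fell, with 6.12, 7.25 and 6.27 CPM in PARPi, against 9.47, 9.03 and 11.4 CPM in WT of December. The groups did not overlap (-0.61 ± 0.11, adjusted p = 0.0259), and Chc had -0.05 (adjusted p = 0.840). CR43967 was called in 3 and CR32582 in 5 of 9 left-out fits. The count of 4 fell to 1 without PARPi library 3, KD library 3 or WT library 1 and to 2 without WT library 2 or 3. Over all genes the 34 calls became 4, 6, 4, 14 and 8 in these fits, in the same order. Hsromega, whose RNA binds hnRNP proteins that are known to carry PAR in flies, had 99.5, 122 and 121 CPM in PARPi, against 145, 129 and 140 CPM in WT of December. All PARPi values were lower, but the change of -0.28 ± 0.09 did not pass (adjusted p = 0.191). In all, 33 of the 154 genes did not overlap between PARPi and WT, against 15.0% of all genes.

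On the TMM scale, more lncRNA genes were called lower than higher after knockdown in December. Of the 154, 25 were called, 5 higher and 20 lower in KD, or 16.2% of the set, against 7.73% of all genes tested (2.08% higher and 5.65% lower) and 11.2% of genes at 1 CPM or more. The median log2 fold change was -0.12 over the set and 0.01 over all genes. Leaving the 20 genes with the most counts out of the library sizes moved the median of all genes to 0.14 and that of the set to 0.0043, and gave 21 calls, 7 higher and 14 lower. Over all genes the calls turned with that scale, with 1024 higher and 271 lower, against 244 higher and 663 lower on the TMM scale. Calls were made more often where counts were high, in 12 of 26 genes at 20 CPM or more and in 2 of 52 genes between 1 and 2 CPM.

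The calls in December moved with transcript length. Of the 25 genes called, 22 had under 1000 bp of exon, as had 90 of the 154. The median log2 fold change was -0.24 over the 47 lncRNA genes under 500 bp, -0.18 over the 43 from 500 to under 1000 bp and -0.00071 over the 64 of 1000 bp or more. Other genes at 1 CPM or more followed the same order, with medians of -0.38 (157 genes, 77 called and all 77 lower in KD), -0.19 (984 genes, 307 lower and 5 higher) and 0.02 (6360 genes, 244 lower and 205 higher). The part of length in the calls was not tested, and the length limits were chosen after the values were seen. In October the medians of the lncRNA genes were -0.04, -0.17 and 0.13 in the same order of length, and those of other genes -0.11, -0.12 and 0.01.

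**Figure D2:**
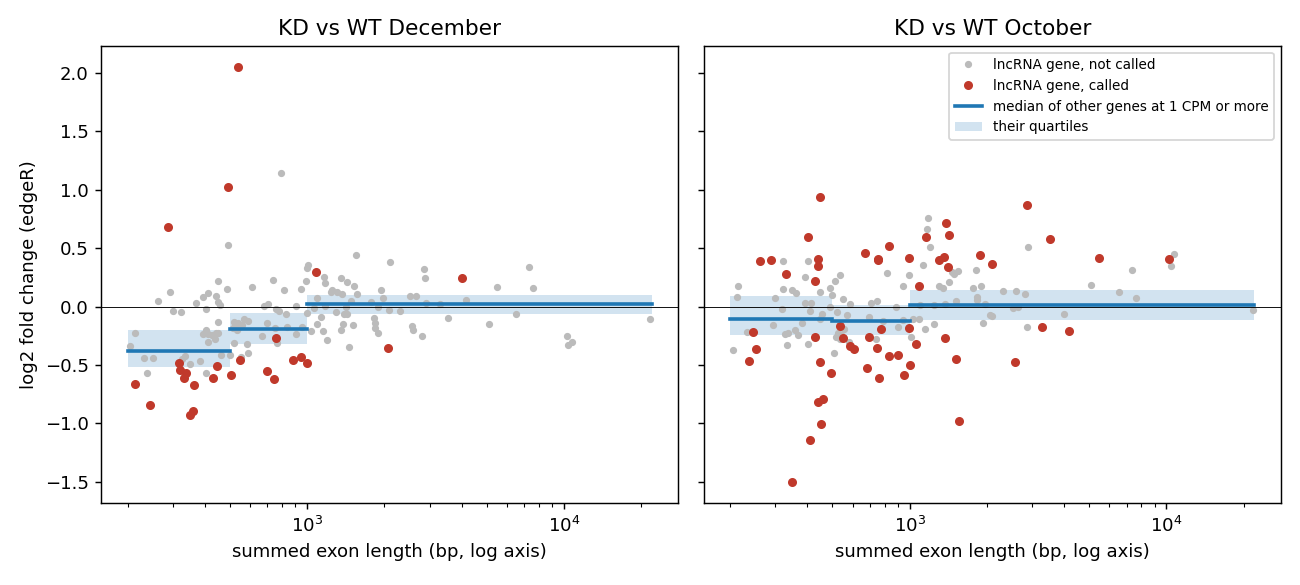
Log2 fold change of KD against WT (vertical axis) by summed exon length in bp (log axis), December on the left and October on the right. Points are the 154 lncRNA genes, red where called, and the blue line and band give the median and quartiles of other genes at 1 CPM or more in 3 length classes; in December the medians of other genes are -0.38, -0.19 and 0.02.

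The 5 largest falls in December among genes whose libraries did not overlap were all in transcripts under 1000 bp. CR43967, also lower in PARPi, had 25.7, 31.4 and 31.0 CPM in KD, against 48.8, 52.0 and 57.5 CPM in WT. No KD value reached a WT value (-0.84 ± 0.10, adjusted p = 7.85e-05), and the gene was called in all 9 left-out fits. lncRNA:CR44814 had 1.22, 1.08 and 1.70 CPM in KD, against 1.94, 2.19 and 3.35 CPM in WT (-0.90 ± 0.20, adjusted p = 0.00761). It overlaps an exon of the translation factor gene eEF5 on the opposite strand, and eEF5 was lower too (-0.37, adjusted p = 0.0172).

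CR34335 had 97.8, 117 and 90.7 CPM in KD, against 180, 149 and 157 CPM in WT (-0.67 ± 0.11, adjusted p = 0.00121), with no overlap. Its host DIP-alpha had a change of 0.03 (adjusted p = 0.901). CR40469 had 26.1, 31.1 and 21.9 CPM in KD, against 48.0, 38.0 and 39.5 CPM in WT (-0.67 ± 0.13, adjusted p = 0.00361). The values of CR34335 and CR40469 ran together, with a ratio of 3.75 to 4.38 in the 9 December libraries and 3.04 to 3.30 in the 7 October libraries (Pearson r of log2 CPM 0.98 and 0.99, a description across libraries that share groups). Whether the genes share sequence was not examined here, so their counts may not be separate measurements.

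lncRNA:CR43958, on chromosome 4 (557025 to 557854, minus strand), shares exon sequence with the DNA glycosylase gene Tdg on the same strand. It had 7.39, 8.73 and 8.40 CPM in KD, against 11.9, 12.8 and 13.1 CPM in WT (-0.62 ± 0.10, adjusted p = 0.000899), and all KD values were lower. lncRNA:CR45566, of 430 bp on 3R (27924879 to 27925368, minus strand) opposite exons of the ribosomal protein gene RpL4 and of mino, had 42.0, 51.2 and 48.7 CPM in KD, against 67.3, 69.3 and 80.9 CPM in WT. Its change was -0.62 ± 0.10 (adjusted p = 0.000876), while RpL4 had -0.16 (adjusted p = 0.264).

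Of the 5 genes that rose, lncRNA:CR44138 had the largest change among those above 1 CPM in both groups. It is a single exon of 493 bp in an intron of CG9813 on 3R (13376903 to 13377395, plus strand). KD libraries had 4.05, 3.95 and 3.12 CPM, against 2.34, 1.62 and 1.51 CPM in WT (1.02 ± 0.16, adjusted p = 0.000714). The groups did not overlap and the call held in all 9 left-out fits.

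lncRNA:CR44135, on 3R 396 bp from CG18547, was close to absent in December. It had 40, 17 and 38 reads in KD, against 4, 8 and 9 reads in WT, so that its log2 fold change of 2.05 ± 0.46 (adjusted p = 0.00741) rests on few reads, and DESeq2 gave it no adjusted p. The other rises were small: lncRNA:CR43918, in an intron of the E2F partner gene Dp, had 1.20, 1.61 and 1.72 CPM in KD, against 0.981, 0.903 and 0.928 CPM in WT (0.68 ± 0.19, adjusted p = 0.0260). CR44953 rose by 0.30 ± 0.09 (140, 165 and 178 CPM in KD, against 133, 120 and 139 CPM in WT, adjusted p = 0.0361) and CR45018 by 0.25 ± 0.06 (67.1, 67.7 and 66.9 CPM in KD, against 58.9, 56.6 and 54.5 CPM in WT, adjusted p = 0.0212).

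Single libraries decided many of the December calls, in the set as over all genes. Only 5 of the 25 genes (CR43967, CR34335, CR43958, CR45566 and CR44138) were called in every left-out fit. The count of 25 became 10 without KD library 1, 8 without KD library 3 and 7 without WT library 3. Over all genes the 907 calls became 293, 251 and 258 in the same fits. Without KD library 2 the counts were 30 in the set and 1212 over all genes.

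**Figure D3:**
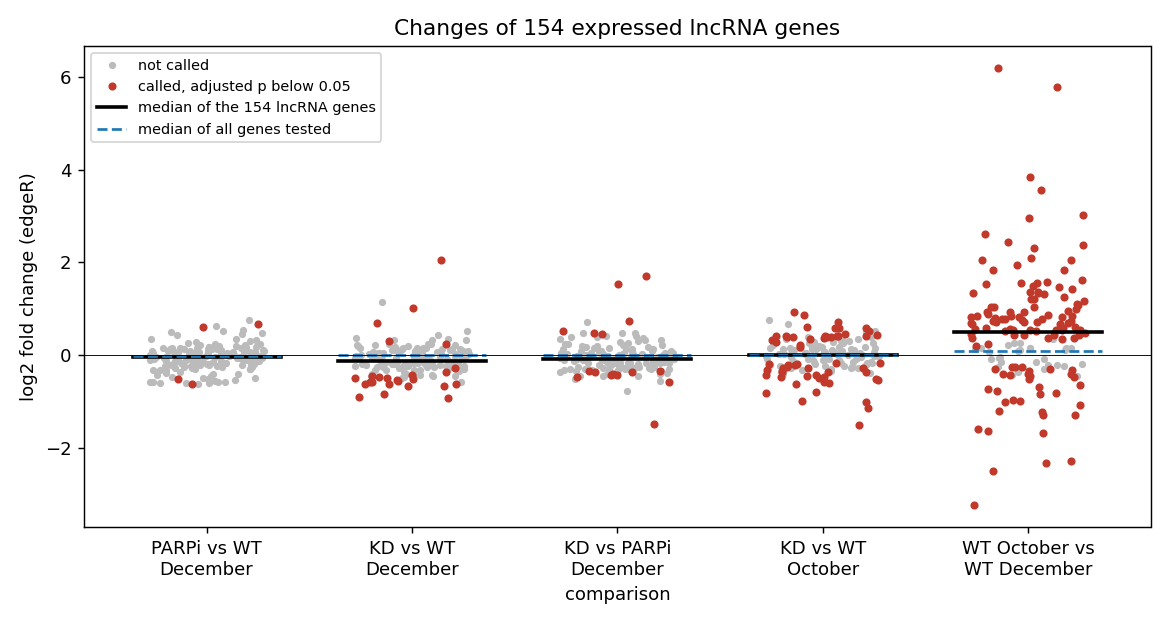
Log2 fold change (edgeR, vertical axis) of the 154 lncRNA genes in 5 comparisons, red where the adjusted p is below 0.05. Solid lines are medians of the set and dashed lines medians of all genes tested; called genes number 4, 25, 16, 58 and 124 from left to right.

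KD and PARPi of December share their WT libraries, so the treatments were compared with each other. Of the 154, 16 were called, 6 higher and 10 lower in KD than in PARPi, or 10.4% of the set, against 5.52% of all genes tested (2.98% higher and 2.55% lower) and 7.88% of genes at 1 CPM or more. With the library number as a block over all 9 December libraries, 36 were called, 10 higher and 26 lower. Over all genes the block gave 1738 calls, 796 higher and 942 lower. The numbers paired KD with PARPi only in part and did not pair WT, so these counts are given only as an alternative. Without the 20 genes with the most counts in the library sizes the main count was 17 with 11 higher and 6 lower, and the median of all genes moved to 0.10, so the balance of directions depends on the scale. The count was 4 without KD library 3 or PARPi library 3, 7 without KD library 1, 8 without PARPi library 2, 25 without KD library 2 and 37 without PARPi library 1. Over all genes the 648 calls became 179, 199, 247, 344, 1092 and 1608 in these fits, in the same order.

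CR44138 differed clearly between the treatments, with 4.05, 3.95 and 3.12 CPM in KD, against 1.34, 1.22 and 1.28 CPM in PARPi (1.53 ± 0.16, adjusted p = 7.82e-06). CR45102 was lower in KD, with 14.9, 14.3 and 15.9 CPM, against 17.8, 21.5 and 20.3 CPM in PARPi (-0.40 ± 0.08, adjusted p = 0.00598). lncRNA:CR44948, of 349 bp, 917 bp from CG33494, had 0.383, 0.859 and 0.682 CPM in KD, against 1.25, 1.72 and 2.36 CPM in PARPi (-1.48 ± 0.28, adjusted p = 0.00258). These 3 genes were called in all 9 left-out fits and showed no overlap between the treatments. Of the 16 genes called, 4 held in every left-out fit, the other being lncRNA:CR45962 (-0.42, adjusted p = 0.00138). For CR43967, which was called lower in each treatment against WT, the log2 fold change of KD against PARPi was -0.34 ± 0.10 (adjusted p = 0.0399). CR44922 (-0.58 ± 0.14, adjusted p = 0.0175) and CR32582 (0.47 ± 0.11, adjusted p = 0.0167) were called too; the comparison shares its PARPi libraries with that against WT. CR43967 was kept in 3, CR44922 in 5 and CR32582 in 6 of 9 left-out fits, and CR43967 was not called when the 20 most counted genes did not enter the library sizes (-0.24, adjusted p = 0.103).

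Knockdown in October changed more genes, as it did over the genome. Of the 154, 58 were called, 26 higher and 32 lower in KD, or 37.7% of the set, against 27.8% of all genes tested (13.8% higher and 14.0% lower) and 39.7% of genes at 1 CPM or more. The median log2 fold change was 0.02 over the set and 0.01 over all genes. The split was 20 higher and 45 lower when the 20 genes with the most counts were left out of the library sizes. Over all genes that scale gave 993 higher and 2660 lower, against 1665 and 1699 on the TMM scale. The number of calls in the set ran from 44 to 63 over the 7 left-out fits, and that over all genes from 2559 to 3461. Of the 58 genes, 37 were called in each of these fits.

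The 5 largest falls in October without overlap reached a log2 fold change of -1.51. CR44948 had 0.899, 1.24, 1.19 and 1.24 CPM in KD, against 3.53, 3.13 and 3.11 CPM in WT of October (-1.51 ± 0.15, adjusted p = 2.58e-07). CR32368, the highest lncRNA gene per kb, had 272, 317, 335 and 312 CPM in KD, against 628, 701 and 714 CPM in WT (-1.14 ± 0.06, adjusted p = 9.91e-11). No KD value of CR32368 came near a WT value, whereas in December it had 370, 427 and 389 CPM in KD, against 440, 447 and 508 CPM in WT (-0.23 ± 0.10, adjusted p = 0.166). Its neighbour Tmem43 was higher in KD of October (0.18, adjusted p = 0.00875).

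lncRNA:mimi, a single exon of 1563 bp on 3R 148 bp from CG13603, had 7.62, 6.51, 5.31 and 6.56 CPM in KD, against 10.3, 13.5 and 14.5 CPM in WT of October (-0.98 ± 0.11, adjusted p = 1.39e-06). lncRNA:CR45625, 490 bp from CG4645, had 2.87, 1.86, 1.66 and 1.93 CPM in KD, against 4.14, 4.12 and 4.28 CPM in WT (-1.01 ± 0.15, adjusted p = 3.12e-05). lncRNA:CR45187, 148 bp from lost, had 1.34, 1.53, 1.67 and 2.01 CPM in KD, against 2.79, 2.95 and 2.92 CPM in WT (-0.82 ± 0.15, adjusted p = 0.000257). All 5 genes were called in each left-out fit, and none of their groups overlapped.

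The 5 largest rises in October without overlap were in genes of low level. lncRNA:CR44457 had 0.868, 0.910, 1.21 and 1.40 CPM in KD, against 0.483, 0.673 and 0.552 CPM in WT (0.94 ± 0.25, adjusted p = 0.00637). lncRNA:CR45363, which overlaps an exon of the signalling adaptor gene Traf4 on the opposite strand, had 2.32, 2.62, 2.64 and 2.24 CPM in KD, against 1.31, 1.64 and 1.09 CPM in WT (0.87 ± 0.16, adjusted p = 0.000333). Traf4 rose as well (0.31, adjusted p = 5.97e-05).

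lncRNA:CR45553 and lncRNA:CR45552 overlap each other on opposite strands beside tmod, so their reads may be shared. CR45553 had 1.58, 1.67, 1.55 and 1.11 CPM in KD, against 0.861, 0.994 and 0.852 CPM in WT (0.71 ± 0.19, adjusted p = 0.00825), and CR45552 had 1.80, 1.89, 1.72 and 1.68 CPM in KD, against 1.30, 0.802 and 1.37 CPM in WT (0.61 ± 0.18, adjusted p = 0.0160). lncRNA:CR44478 lies in an intron of Socs36E, an inhibitor of JAK/STAT signalling, and had 2.51, 2.34, 1.93 and 2.38 CPM in KD, against 1.28, 1.44 and 1.83 CPM in WT (0.59 ± 0.16, adjusted p = 0.00804). Socs36E rose by 0.21 (adjusted p = 0.00108). Groups of these 5 genes did not overlap.

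The months share no library, so knockdown could be set side by side. Of the 154 genes, 11 were called in both months, 14 in December only, 47 in October only and 82 in neither. The 11 are 44.0% of the December calls and 19.0% of the October calls, against 49.4% and 14.0% for the 429 of all genes at 1 CPM or more that were called in both. Over all 154 genes, 78 (50.6%) lay on the same side of 0 in both months, against 56.3% of the genes at 1 CPM or more, and the log2 fold changes had a Pearson r of 0.12 and a Spearman rho of 0.16 across genes, which are not independent replicates.

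Of the 11, 7 moved the same way and 4 in opposite directions. Of the 429 genes at 1 CPM or more called in both months, 309 moved the same way and 120 in opposite directions. CR44948 fell in each month (-0.93 ± 0.28 in December, adjusted p = 0.0486, and -1.51 ± 0.15 in October). In December it had 0.383, 0.859 and 0.682 CPM in KD, against 1.16, 0.834 and 1.63 CPM in WT, which overlap, and the December call was kept in 4 of 9 left-out fits. CR43958 had 7.89, 9.32, 9.22 and 9.35 CPM in KD of October, against 11.3, 10.8 and 12.2 CPM in WT (-0.36 ± 0.08, adjusted p = 0.00170), and was called in every left-out fit of each month. CG33494, the gene nearest to CR44948, also fell in each month (-0.50 in December, adjusted p = 0.000313, and -0.38 in October, adjusted p = 6.95e-06).

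The falls of lncRNA:CR42861, lncRNA:CR43241 and CR43967 were shallower in October. CR42861, 101 bp from Pdcd4, changed by -0.46 ± 0.11 in December (adjusted p = 0.0122) and -0.27 ± 0.08 in October (adjusted p = 0.0171). CR43241, which overlaps an exon of CG42748, changed by -0.49 ± 0.10 (adjusted p = 0.00506) and -0.18 ± 0.06 (adjusted p = 0.0184). For CR43967 the October values were 42.0, 48.5, 59.0 and 51.5 CPM in KD and 63.7, 57.0 and 54.8 CPM in WT, which overlap (-0.22 ± 0.08, adjusted p = 0.0419), and it was called in 2 of 7 left-out fits. The genes that rose in each month were CR44953, with 253, 240, 231 and 239 CPM in KD of October, against 214, 212 and 214 CPM in WT (0.17 ± 0.05, adjusted p = 0.00698), and CR43918, with 4.89, 5.39, 5.16 and 4.60 CPM in KD, against 3.13, 4.59 and 3.74 CPM in WT (0.40 ± 0.12, adjusted p = 0.0149). The December call was kept in 3 of 9 left-out fits for CR44953 and in 4 of 9 for CR43918. The October call of CR43918 was kept in 5 of 7.

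The other 4 were called in opposite directions. When the 20 most counted genes did not enter the library sizes, CR44138 was still called in each month, but CR43883 was not called in December (-0.15, adjusted p = 0.161), nor CR45566 (0.14, adjusted p = 0.0693) and CR45212 (0.21, adjusted p = 0.113) in October. Of the genes with the same direction, CR44948 was not called in December on that scale (-0.80, adjusted p = 0.0650), nor CR44953 in October (0.098, adjusted p = 0.135). In all, 9 genes were called in both months on that scale, 6 in the same and 3 in opposite directions. CR44138, higher in KD of December, had 10.4, 10.5, 11.9 and 10.3 CPM in KD of October, against 18.4, 14.8 and 14.7 CPM in WT (-0.57 ± 0.08, adjusted p = 2.75e-05). The gene around it, CG9813, had 0.84 in December (adjusted p = 0.114) and -0.64 in October (adjusted p = 0.000198). CR45566 rose in October, with 44.7, 51.4, 49.2 and 45.1 CPM in KD, against 38.1, 41.0 and 43.9 CPM in WT (0.22 ± 0.06, adjusted p = 0.00915), as did RpL4 on the other strand (0.45, adjusted p = 6.28e-06).

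CR43883, of 754 bp and 5208 bp from the splicing factor gene Sf3b3, had 115, 135 and 116 CPM in KD of December, against 144, 147 and 150 CPM in WT (-0.27 ± 0.07, adjusted p = 0.0242). In October it had 159, 173, 173 and 168 CPM in KD, against 114, 135 and 131 CPM in WT (0.40 ± 0.05, adjusted p = 1.34e-05), and neither month's groups overlapped. lncRNA:CR45212, which shares exon sequence with the immune kinase gene IKKbeta, had 3.77, 5.41 and 4.95 CPM in KD of December, against 6.35, 6.78 and 8.43 CPM in WT (-0.61 ± 0.15, adjusted p = 0.0132). In October it had 9.10, 11.4, 11.7 and 12.1 CPM in KD, against 7.85, 8.96 and 10.6 CPM in WT, which overlap (0.28 ± 0.10, adjusted p = 0.0423). The October call of CR45212 was kept in 2 of 7 left-out fits.

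**Figure D4:**
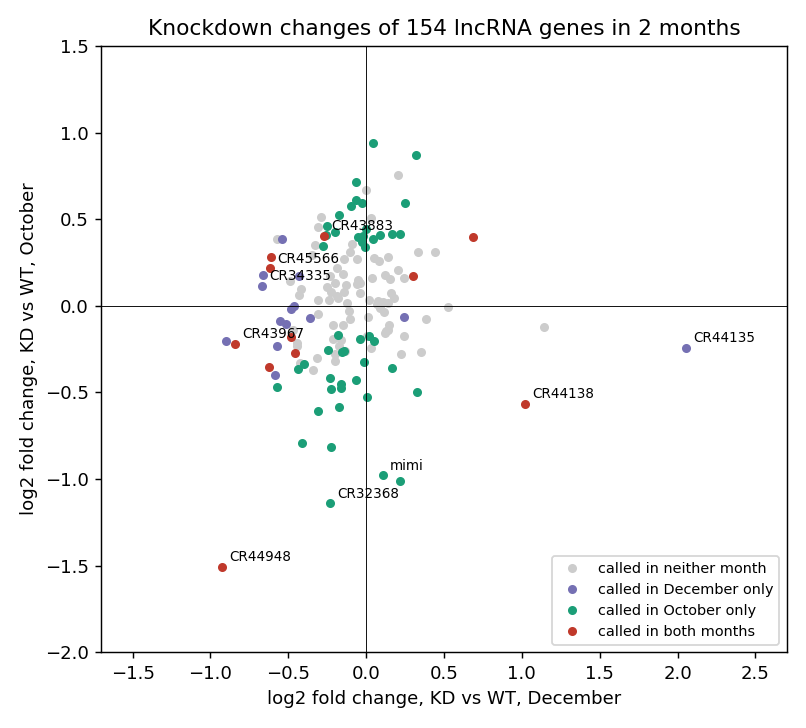
Log2 fold change of KD against WT in December (horizontal axis) and October (vertical axis) for the 154 lncRNA genes, coloured by the month in which each was called. Of the 11 genes called in both months, 7 have the same sign and 4 have opposite signs, against 309 and 120 of 429 genes at 1 CPM or more.

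The difference between the months was tested itself, as the October effect minus the December effect. It was called in 37 of the 154 genes, 27 above and 10 below 0, or 24.0% of the set, against 14.1% of all genes tested (8.33% above and 5.77% below 0) and 21.6% of genes at 1 CPM or more. When the 20 most counted genes did not enter the library sizes, 13 lay above and 24 below 0 and the median of all genes was -0.18, so the balance between the directions follows the scale. The 4 genes with opposite directions were called, with differences of -1.57 ± 0.17 (CR44138, adjusted p = 1.90e-07), 0.85 ± 0.10 (CR45566, adjusted p = 9.33e-07), 0.69 ± 0.09 (CR43883, adjusted p = 2.37e-06) and 0.91 ± 0.17 (CR45212, adjusted p = 0.000297). CR32368 differed by -0.89 ± 0.10 (adjusted p = 1.90e-07), mimi by -1.06 ± 0.18 (adjusted p = 0.000146) and CR45625 by -1.21 ± 0.26 (adjusted p = 0.00158).

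CR34335 and CR40469, lower in KD of December, were not lower in October. CR34335 had 295, 357, 264 and 361 CPM in KD of October, against 232, 302 and 350 CPM in WT (0.12 ± 0.10, adjusted p = 0.460), and the months differed by 0.81 ± 0.15 (adjusted p = 0.000335). CR40469 had 92.8, 117, 86.9 and 115 CPM in KD, against 71.3, 95.7 and 106 CPM in WT (0.18 ± 0.10, adjusted p = 0.228), and the months differed by 0.86 ± 0.16 (adjusted p = 0.000347). CR43264 had 69.0, 90.3 and 90.2 CPM in KD of December, against 110, 113 and 125 CPM in WT (-0.48 ± 0.12, adjusted p = 0.0129), and a difference between months of 0.48 ± 0.10 (adjusted p = 0.00178). DESeq2 did not call the December change of CR43264 (adjusted p = 0.0729), and its difference between months was 0.26 (adjusted p = 0.0550) when the 20 most counted genes did not enter the library sizes.

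**Figure D5:**
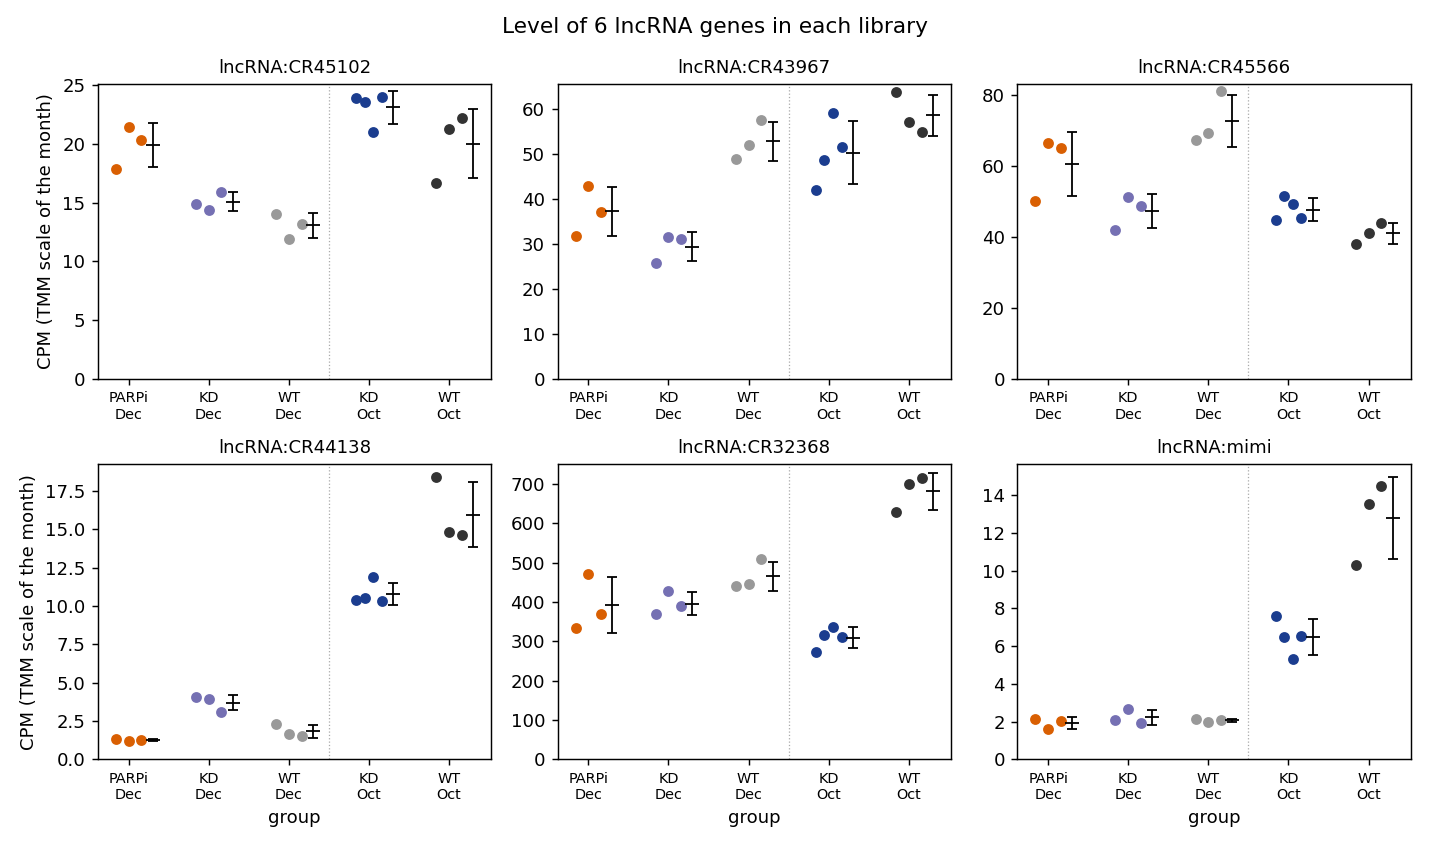
CPM (scaled by TMM within each month) of 6 lncRNA genes in each library, with the mean and SD of each group beside its points. PARPi, KD and WT of December stand left of the dotted line and KD and WT of October right of it; CR44138 averaged 3.71 CPM in KD and 1.82 CPM in WT of December, but 10.8 CPM in KD and 16.0 CPM in WT of October.

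The month of the untreated cells went with more calls than either treatment. WT of October against WT of December gave 124 calls among the 154 genes, 89 higher and 35 lower in October, or 80.5% of the set, against 61.4% of all genes tested (31.1% higher and 30.3% lower) and 77.5% of genes at 1 CPM or more. The median log2 difference was 0.50 over the set and 0.10 over all genes, and when the 20 most counted genes did not enter the library sizes it was 0.86 and 0.46, with 106 higher and 19 lower. The rule bears on this comparison: 15 genes were under 1 CPM in WT of December and 13 in WT of October. Of the 126 at 1 CPM or more in both, 99 were called, 75 higher and 24 lower in October. Culture, library preparation and sequencing may all differ between the months and cannot be told apart. The hemocyte gene Hml, which encodes the clotting protein hemolectin, moved with the month as well, with a mean of 16.7 CPM in WT of October and 287 CPM in WT of December, each on the scale of its month, and its part in the lncRNA differences was not tested.

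Some lncRNAs were close to absent in December and clear in October, on a scale common to the months. lncRNA:CR44183, 1728 bp from ACXE, had 4.25, 6.13 and 4.93 CPM in WT of October (296, 405 and 335 reads), against 0.0518, 0.0856 and 0.0661 CPM in WT of December (4, 7 and 5 reads). CR44135 had 3.97, 5.28 and 5.71 CPM in October, against 0.0518, 0.0978 and 0.119 CPM in December. The log2 differences were 6.19 ± 0.23 (adjusted p = 9.33e-20) and 5.77 ± 0.25 (adjusted p = 2.37e-18).

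lncRNA:CR44809, 525 bp from Clamp, whose product guides the dosage compensation complex to the X chromosome, had 56.2, 61.3 and 61.5 CPM in WT of October, against 5.59, 5.16 and 4.39 CPM in WT of December (3.56 ± 0.10, adjusted p = 1.13e-22). Clamp itself differed by 0.05 (adjusted p = 0.434). lncRNA:CR45737, 6546 bp from sty, an antagonist of receptor tyrosine kinases, rose by 3.84 ± 0.21 (3.60, 4.33 and 3.31 CPM in October, against 0.285, 0.220 and 0.278 CPM in December). lncRNA:CR46015, 872 bp from the glutathione transferase gene GstD2, rose by 3.02 ± 0.25 (1.98, 2.69 and 2.61 CPM, against 0.453, 0.232 and 0.211 CPM).

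Of the 5 largest falls, 4 were in transcripts inside or across other genes. lncRNA:CR32218, in introns of Mi-2 and Su(Tpl), had 0.545, 0.484 and 0.103 CPM in WT of October, against 3.88, 3.30 and 3.50 CPM in WT of December (-3.23 ± 0.24, adjusted p = 6.11e-13). lncRNA:CR33963, which shares exon sequence with the mRNA decay factor gene Tis11, had 0.502, 0.605 and 0.191 CPM, against 2.51, 1.94 and 2.84 CPM (-2.49 ± 0.27). lncRNA:CR46258, which overlaps an exon of the GATA cofactor gene ush, had 0.803, 0.651 and 0.751 CPM, against 4.31, 3.71 and 2.99 CPM (-2.32 ± 0.18). lncRNA:CR45531, in an intron of CG14434, had 0.803, 0.590 and 0.883 CPM, against 3.62, 3.52 and 3.87 CPM (-2.27 ± 0.17). In none of the 4 did the months overlap. Of the genes around them CG14434 (-1.27), ush (-1.08), Mi-2 (-0.92) and Su(Tpl) (-0.37) were lower in October too, while Tis11 had -0.12 (adjusted p = 0.0791).

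Transcripts that hold microRNA genes made up 9 of the 154. Hsromega holds mir-4951, lncRNA:CR46006 holds mir-276a, lncRNA:CR31044 holds mir-279 and mir-996, lncRNA:CR44206 holds mir-184, lncRNA:CR43459 holds mir-277 and mir-34, lncRNA:CR43857 holds mir-275, lncRNA:CR43650 holds mir-8, lncRNA:CR43314 holds mir-bft and CR43651 holds mir-14. None of the 9 was called by edgeR or by DESeq2 in PARPi or in KD of December against WT (2 and 1 at an unadjusted p below 0.05 by either tool), and the mature microRNAs were not measured in these libraries. CR46006 was the host with a call in KD of October, with 12.8, 11.6, 10.9 and 11.2 CPM in KD, against 9.24, 9.07 and 7.94 CPM in WT (0.41 ± 0.08, adjusted p = 0.000549). All KD values were higher, and in December the gene had 18.1, 23.0 and 21.2 CPM in KD, 22.0, 29.1 and 29.5 CPM in PARPi and 25.8, 25.5 and 23.0 CPM in WT, with KD called below PARPi though the groups overlap (-0.37 ± 0.10, adjusted p = 0.0305). This call was kept in 4 of 9 left-out fits and lost when the 20 most counted genes did not enter the library sizes (-0.27, adjusted p = 0.0918).

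CR43459, the precursor of mir-277 and mir-34, which act in metabolism and ageing of flies, had 7.69, 7.52 and 8.94 CPM in KD of December, 3.73, 5.56 and 5.17 CPM in PARPi and 9.33, 7.80 and 4.50 CPM in WT. KD and PARPi differed by 0.74 ± 0.18 (adjusted p = 0.0155 by edgeR and 0.0764 by DESeq2) without overlap, whereas WT spread over the range of both. The effect of knockdown differed between the months for CR46006 (0.68 ± 0.12, adjusted p = 0.000115) and CR43314 (0.78 ± 0.26, adjusted p = 0.0429). The call of CR43314 was kept in 5 of 13 left-out fits and in 3 of 6 other settings. The remaining hosts had log2 fold changes between -0.33 and 0.35 in KD against WT of either month, and none was called there.

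Between the months, WT levels of CR46006 differed by -1.68 ± 0.09 (adjusted p = 8.78e-17), CR44206 by -0.81 ± 0.09 and CR43459 by -0.67 ± 0.15, while CR43857 differed by 1.94 ± 0.17 and Hsromega by 0.71 ± 0.09. CR42491, which shares exon sequence with RpL22, was the member with an annotated snoRNA inside. Its levels were 90.3, 120 and 116 CPM in KD of December, against 119, 132 and 120 CPM in WT (-0.18 ± 0.10, adjusted p = 0.311), and 143, 163, 154 and 162 CPM in KD of October, against 151, 148 and 152 CPM in WT (0.05 ± 0.05, adjusted p = 0.541).

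Hsromega itself was not called after knockdown in either month. It had 114, 143 and 128 CPM in KD of December, against 145, 129 and 140 CPM in WT, which overlap (-0.11 ± 0.09, adjusted p = 0.550), and 230, 247, 273 and 256 CPM in KD of October, against 206, 286 and 277 CPM in WT (-0.03 ± 0.08, adjusted p = 0.842). The genes whose log2 CPM followed it most closely over the 9 December libraries were lncRNA:CR46094, lncRNA:CR43148 and the glutathione transferase gene GstE7, with a Pearson r of 0.97, 0.95 and 0.95 among 7725 genes compared. These r are the highest of 7725 over 9 libraries that share groups, so they are given as a description. The most abundant gene, CR42862, was called in KD of October, with 560, 479, 453 and 491 CPM in KD, against 507, 337 and 271 CPM in WT. These groups overlap (0.42 ± 0.13, adjusted p = 0.0166), and the call was kept in 4 of 7 left-out fits.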

How the data were processed

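Raw gene counts were deposited by the authors. Per the labels and the study's methods, paired reads were aligned to BDGP6 with STAR 2.6 and counted with HTSeq 0.10.0 with no strand setting stated. The counts were tested with edgeR 4.0.16 in R 4.3.3 (quasi-likelihood, TMM, at least 10 counts in total, Benjamini-Hochberg over all genes, threshold 0.05), in fits of the 9 December, the 7 October and the 13 KD and WT libraries. CPM are on the TMM scale of the fit. The members and lists were chosen with earlier results of these data known. Named are the 10 members with the most counts, all called in PARPi, the 5 largest rises and falls without overlap in each KD or WT comparison, the genes called in both months, small RNA hosts and the genes beside the limit; CR46094, CR43148 and the KD against PARPi genes were named from their values. The deviations of same-numbered KD and PARPi libraries from their group means had r of 0.69, 0.47 and 0.16. PARPi library 3 had a higher r with KD library 2 (0.28), so the numbers pair these libraries only in part. Numbers did not pair WT with either treatment. In simulated counts for KD against WT of December, edgeR recovered 100% of the 200 genes given a log2 change of 1 among 11543 genes, and 5.21% of its calls were false. Alternatives were DESeq2 1.42.0, other size factors and filters, library sizes without 20 genes, a block, and leaving out each library. Libraries within a group differed by more than sampling noise, with a chi-square per gene of 7.82 to 142. No sequence is shown, since none was given here for these genes.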

Additional observations from a re-analysis of the deposited data

Results flagged for a closer look

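In KD of October, 1 library stood apart from the other 3 in 5 of the 52 genes named, by Dixon's test, which flags about 1 group in 20 by chance. The low values were 21.0 CPM for CR45102 (others 23.5 to 24.0), 7.89 CPM for CR43958 (others 9.22 to 9.35) and 0.899 CPM for CR44948 (others 1.19 to 1.24). The high values were 11.9 CPM for CR44138 (others 10.3 to 10.5) and 5.67 CPM for CR43459 (others 5.27 to 5.33).

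The effect of knockdown differed between October and December, by the test of the difference, in 21 of the 52 genes named. Some of these were named for that difference, so this share describes the choice of genes. Over the whole set it was 37 of 154 genes (24.0%), against 21.6% of genes at 1 CPM or more. It was below 0 for CR44135 (-2.29), CR44138 (-1.57), CR44183 (-1.25), CR45625 (-1.21), mimi (-1.06), CR32368 (-0.89) and CR45018 (-0.30). It was above 0 for lncRNA:CR44727 (0.98), lncRNA:CR44129 (0.95), CR44457 (0.91), CR45212 (0.91), CR40469 (0.86), CR45566 (0.85), CR34335 (0.81), CR45553 (0.80), CR43314 (0.78), CR43883 (0.69), CR46006 (0.68), CR43967 (0.64), CR43264 (0.48) and CR43241 (0.32). CR44135 and CR44183 had at most 40 and 14 reads in any December library. CR44183 (adjusted p = 0.0487) was called in 2, CR44457 (adjusted p = 0.0370), CR43314 and CR43241 in 5, CR44727 (adjusted p = 0.0254) in 8 and CR45553 in 9 of the 13 left-out fits. On library sizes without the 20 most counted genes, some were not called, with adjusted p from 0.0550 to 0.494 (edgeR). These were CR43241, CR43264, CR43314, CR44457, CR44727 and CR45553.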

How the results depend on the processing

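The number of lncRNA genes called in PARPi against WT was 14 with no filter on counts, 2 with edgeR's filterByExpr and 16 with the library number as a block, and 1 to 6 when a library was left out. Over all genes these fits gave 293, 18, 496 and 4 to 91, against 34 in the main fit. KD against PARPi gave 37 with no filter and 36 with the replicate block, and 4 to 37 over left-out libraries. For all genes this was 1269, 1738 and 179 to 1608, against 648 in the main fit. Left-out libraries gave 7 to 30 in KD against WT of December, 44 to 63 in October, 29 to 37 for the difference between months and 118 to 125 for WT of October against WT of December. The all-gene ranges were 251 to 1212, 2559 to 3461, 1416 to 1857 and 7296 to 7823. The block, where numbers do not pair the libraries, gave 36 in KD of December, 60 in October, 45 for the difference and 126 between the WT months. Over all genes the block gave 1609, 3265, 2098 and 7708. CR43883 reversed in KD against WT of December in a fit of both months with a term for the month (0.10, adjusted p = 0.509, edgeR), which averages a fall and a rise, and CR43958 reversed between the WT months when the 20 most counted genes did not enter the library sizes (0.048, adjusted p = 0.629, edgeR). Of the named genes called, the other settings kept 128 of 144 values past the threshold in KD of December, 139 of 144 in October and 25 of 28 in PARPi. Genes between 1 and 2 CPM, where the counting error was 9.33% to 10.5%, gave 2 calls of 52 in KD of December and 13 in KD of October. Which genes of an overlapping pair gave the reads was not tested.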

Other observations

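Genes named asRNA:, which are annotated as antisense transcripts and are no members of the set, gave 172 genes at 1 CPM or more. None was called in PARPi against WT by edgeR (16 at an unadjusted p below 0.05), and DESeq2 called 2. In KD against WT 15 (8.72%) were called in December (1 higher and 14 lower), against 11.2% of genes at 1 CPM or more, and 48 (27.9%) in October (35 higher and 13 lower), against 39.7%. The December count was 8 when the 20 most counted genes did not enter the library sizes. Over all genes that scale gave 1295 calls, 1024 higher and 271 lower, against 244 higher and 663 lower on the TMM scale. The host genes of snoRNAs Uhg1 to Uhg5, Uhg7 and Uhg8, listed without the lncRNA: prefix, stood between 6.06 and 90.3 CPM. Uhg3 and Uhg4 were lower in KD of December, at 34.1 ± 4.0 CPM and 54.5 ± 9.87 CPM in KD, against 44.1 ± 1.77 CPM and 76.4 ± 1.47 CPM in WT (SD, n = 3 each; adjusted p = 0.0174 and 0.00961, edgeR). In October both had adjusted p of 0.921 and 0.635. roX2 averaged 104 ± 14.9 CPM in KD of December, against 142 ± 8.96 CPM in WT (-0.45, adjusted p = 0.0150, edgeR), and 134 ± 11.4 CPM in KD of October, against 124 ± 13.7 CPM in WT (0.12, adjusted p = 0.197).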
